A study of Rattus norvegicus with 2 samples.

Results

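The genes described here are 9 genes known from injured and regrowing axons: *Gap43*, *Stmn2*, *Sox11*, *Ecel1*, *Gal*, *Npy*, *Vgf*, *Penk* and *Nppb*. They were taken by symbol from a gene table of 32662 rat genes, and all 9 have a row. Gene expression was measured by rRNA-depleted RNA-seq in 2 retinal samples of Long-Evans rats aged 2 months. CTRL is a retina after a sham procedure, and IR12 is a retina taken 12 hours after the blood supply was restored following ischemia (ischemia-reperfusion, IR). The values are FPKM, a read density scaled to transcript length and sequencing depth, so levels of different genes can be compared per length. With 1 library for each condition there is no replicate error and no test of the condition, and every difference below is a difference between these 2 libraries.

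An adult neuron whose axon is damaged can switch on a growth program. It includes growth cone proteins such as GAP-43, tubulin-binding proteins of the stathmin family, transcription factors such as Sox11 and ATF3, and secreted peptides such as galanin, neuropeptide Y and the precursor VGF. The retinal ganglion cell is the retinal neuron with an axon in the optic nerve. Some of these genes are also used in the uninjured retina, for example *Penk*, the precursor of the enkephalins, in amacrine cells.

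The 9 genes did not move together. *Gap43* was the only member at least 2-fold higher in IR12 and *Penk* the only member at least 2-fold lower. All counts of 2-fold differences here are on log2(FPKM + 1), which understates low genes, so a low gene can differ by more in plain FPKM. Over all 13599 genes with FPKM of at least 1 in 1 library or both, 6.56% were 2-fold higher or more and 6.12% 2-fold lower or more. Counting any difference, 3 of the 5 members that reach FPKM 1 were higher in IR12 and 2 were lower, while 51.8% of the 13599 genes were higher. Of the 3, *Vgf* reached FPKM 1 only in IR12, so the filter fixed its direction. The summed FPKM of the 9 genes as deposited was 125 in CTRL and 125 in IR12, and with both libraries brought to the same sum (TPM scale) it was 1.56 times as high in IR12. *Gap43*, *Stmn2* and *Penk* held 97.9% of this sum in CTRL and 96.8% in IR12. The other 6 genes stayed under FPKM 2 in both libraries, and 4 of them did not reach FPKM 1 in either.

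**Figure D1:**
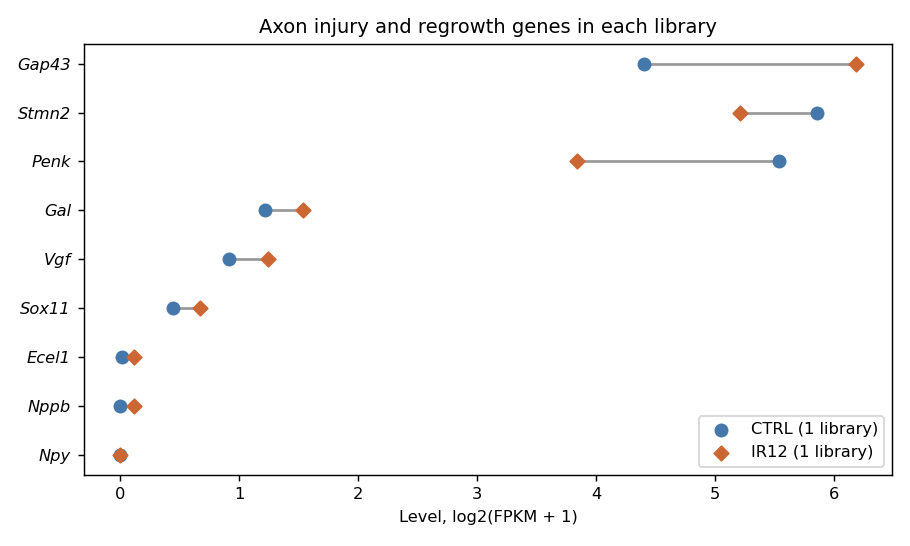
Level of each of the 9 genes as log2(FPKM + 1) in the CTRL library (circles) and the IR12 library (diamonds), 1 library each, with a line joining the values of a gene. *Gap43* lies to the right in IR12, *Stmn2* and *Penk* lie to the left, and the other 6 genes stay under FPKM 2.

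*Gap43* encodes a membrane-bound protein of the growth cone (ENSRNOG00000001528, rn6, chromosome 11, 58624198 to 58717914). Its FPKM was 20.1 in CTRL and 71.4 in IR12. The level in IR12 was 3.55 times that in CTRL, a log2 ratio of 1.78. *Gap43* thus passed from the third highest of the 9 genes in CTRL to the highest in IR12. Among genes with FPKM of at least 1 it went from percentile 60.4 in CTRL to percentile 88.3 in IR12, and 2.41% of the 13599 genes had a higher ratio. Another listed gene shares the locus and is at 0 in both libraries.

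*Stmn2* encodes stathmin-2 (SCG10), which binds tubulin and regulates microtubules in axons (ENSRNOG00000011705, chromosome 2, 95424251 to 95472115). Its FPKM was 56.9 in CTRL against 36.0 in IR12, with a log2 ratio of -0.65, which is short of a 2-fold difference. It was the most abundant of the 9 genes in CTRL and the second in IR12. The related stathmins were *Stmn1* with an FPKM of 281 and 188, *Stmn3* with 86.4 and 64.8, and *Stmn4* with 22.7 and 23.0, in CTRL and IR12. Their log2 ratios were -0.58, -0.41 and 0.02, and none of the 4 stathmins was 2-fold different. The sign depends on the scale, since *Stmn1* and *Stmn3* were at 0.07 and 0.23 on the TPM scale (both libraries brought to the same sum), and *Stmn4* was at -0.08 with small RNAs left out of the scaling.

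*Penk* encodes proenkephalin, the precursor of opioid peptides (ENSRNOG00000008943, chromosome 5, 17056419 to 17061837). Its FPKM was 45.4 in CTRL and 13.3 in IR12. CTRL was 3.42 times as high, a log2 ratio of -1.70, and 2.60% of the 13599 genes had a lower ratio. *Penk* had a higher level than *Gap43* in CTRL and a lower level in IR12. A listed gene that shares its locus is at 0 in both libraries.

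The depth behind these values can be read from the table, because the lowest FPKM values move in steps of single reads. From the step at locus lengths of 900 to 1200 bases, the depth that scales FPKM was 1.71 times as high in IR12 as in CTRL, which need not be the ratio of reads sequenced. Read back in this way, 43 of 43 olfactory receptor genes with a value above 0 in CTRL and 118 of 121 in IR12 came within 0.05 of a whole number of reads. Olfactory receptor genes were not left out when the step was fitted, so this is not an independent check. On a transcript of 1000 bases, the FPKM of *Gap43* would stand for 247 reads in CTRL and 1499.6 reads in IR12. That of *Penk* would stand for 558 and 279 reads. That of *Stmn2* would stand for 699.6 and 756 reads. Values of this size carry little counting error, while the spread between animals is not known, so condition and animal cannot be told apart.

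*Gal* encodes galanin, a neuropeptide of injured sensory and central neurons (ENSRNOG00000015156, chromosome 1, 218652917 to 218657925). Its FPKM was 1.32 in CTRL against 1.90 in IR12, with a log2 ratio of 0.32. *Vgf* encodes a secreted precursor that is induced by nerve growth factor (ENSRNOG00000001416, chromosome 12, 22677607 to 22680630). Its FPKM was 0.879 in CTRL against 1.36 in IR12, with a log2 ratio of 0.33. Both genes were listed slightly higher in IR12, at low levels among genes that reach FPKM 1 (percentile 9.21 for *Gal* and 4.17 for *Vgf* in IR12). Over their loci the values stand for at most 97.4 and 239.8 reads for *Gal* and at most 38.2 and 101 reads for *Vgf*, in CTRL and IR12. The actual reads are not known, so whether these differences exceed counting error was not tested. Around 27% of the 13599 genes had a higher ratio than either, 27.0% for *Gal* and 26.7% for *Vgf*.

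*Gal* and *Vgf* are the members with FPKM of at least 1 in IR12 that matched a RefSeq promoter, and 6 of the 9 genes matched one in all (*Gal*, *Npy*, *Nppb*, *Sox11*, *Ecel1* and *Vgf*). The 250 bases before the start of each are shown 5′ to 3′ from RefSeq on GRCr8, a later build than the rn6 of the expression table, as chr12:25277021-25277270 (minus strand) for *Vgf* and chr1:210084573-210084822 (minus strand) for *Gal*. Capitals mark TGACGTCA, the cyclic AMP response element (CRE), and TATAAA, the TATA box.
Vgf: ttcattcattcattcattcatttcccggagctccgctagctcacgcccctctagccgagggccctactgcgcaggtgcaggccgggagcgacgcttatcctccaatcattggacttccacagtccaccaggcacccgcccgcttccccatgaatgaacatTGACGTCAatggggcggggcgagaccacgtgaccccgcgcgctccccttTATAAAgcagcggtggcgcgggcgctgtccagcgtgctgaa
Gal: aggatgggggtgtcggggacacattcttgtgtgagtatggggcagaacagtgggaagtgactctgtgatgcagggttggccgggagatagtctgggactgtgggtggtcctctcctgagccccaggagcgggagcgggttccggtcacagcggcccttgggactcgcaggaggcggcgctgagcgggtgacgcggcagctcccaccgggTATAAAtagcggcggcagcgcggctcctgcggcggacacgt

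Proteins of the CREB and ATF families bind the CRE, which reads the same on both strands, and Fos and Jun bind TGANTCA, the AP-1 element. The CRE was found in 1 of the 6 promoters, that of *Vgf*, where it begins 90 bases before the start, and in 1.59% of 33469 rat promoters of the same length. TGANTCA, searched on both strands, was in none of the 6 and in 6.34% of all promoters. TATAAA on the gene strand was in the promoters of *Vgf* and *Gal* and in 8.06% of all promoters. None of the marked motifs overlap. A match says only that the letters are present.

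*Sox11* encodes a transcription factor of the SoxC group (ENSRNOG00000030034, chromosome 6, 46629974 to 46631983). Its FPKM was 0.359 in CTRL and 0.589 in IR12. Taken as a gene with no intron, its listed length of 2010 bases gives whole reads, 10 in CTRL and 28 in IR12. Per read of depth IR12 was 1.64 times CTRL, with an exact 95% interval of 0.773 to 3.78 that covers counting error only. The interval includes a ratio of 1, so no difference in *Sox11* was detectable at this depth. Its relative *Sox12* had 5 reads in CTRL and 6 in IR12, with FPKM of 0.397 and 0.279 and an interval of 0.179 to 2.91.

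*Ecel1* encodes a membrane peptidase of damaged neurons (ENSRNOG00000019447, chromosome 9, 94239006 to 94250809). Its FPKM was 0.00909 in CTRL and 0.0852 in IR12, which correspond to at most 1.63 and at most 26.0 reads over a locus of 11804 bases. *Nppb* encodes brain natriuretic peptide (ENSRNOG00000008141, chromosome 5, 164796185 to 164797531). It was listed at 0 in CTRL and had an FPKM of 0.0809 in IR12, at most 2.44 reads. *Npy*, which encodes neuropeptide Y (ENSRNOG00000046449, chromosome 4, 79573998 to 79581208), was listed at 0 in both libraries. All 37 mitochondrial genes are also listed at 0 in both, and a value of 0 may thus be a failed estimate. For these 3 genes the reads behind the values are few or not known, and no difference is read from them.

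Scaling bears on these directions. Small non-coding RNAs take 68.0% of the summed FPKM in CTRL and 46.2% in IR12, so rescaling both libraries to the same sum (TPM scale) raises nearly all other genes of IR12. The median log2 ratio of the 13599 genes moved from 0.02 to 0.59. On that scale 20.7% of the genes were at least 2-fold higher and 3.21% at least 2-fold lower, and again *Gap43* (2.40) was the only member at least 2-fold higher and *Penk* (-1.07) the only one lower. *Stmn2* was at -0.01 on that scale. Relative to the median gene there, *Gap43* was at 1.81, *Penk* at -1.67 and *Stmn2* at -0.60, close to the values as deposited. *Gapdh*, a glycolytic enzyme often used as a reference, had 716 FPKM in CTRL against 690.1 in IR12.

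**Figure D2:**
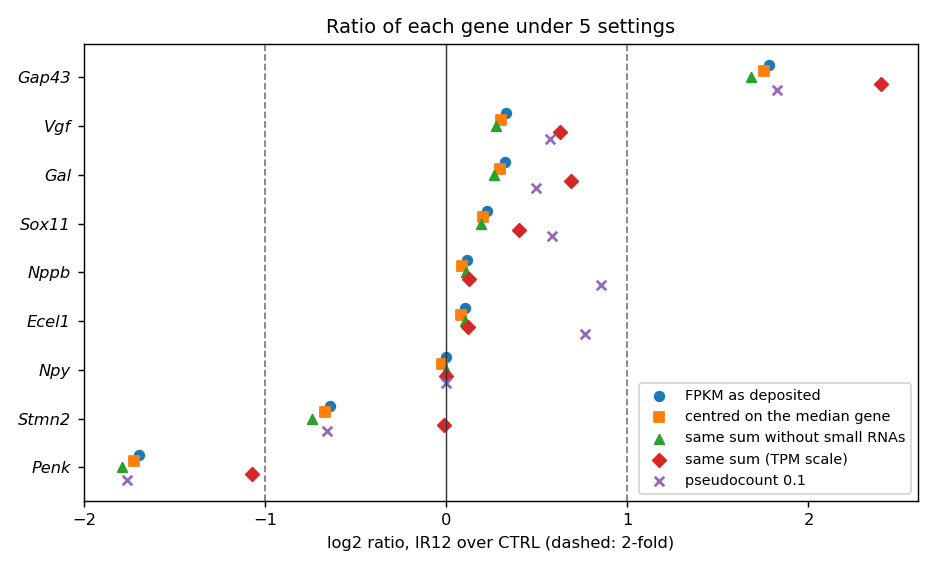
The log2 ratio of each gene, IR12 over CTRL, under 5 settings, with dashed lines at a 2-fold difference. *Gap43* lies right of the upper line and *Penk* left of the lower line under every setting, *Stmn2* moves to -0.01 on the TPM scale, and the other 6 genes lie between the lines.

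Among 27 genes of the growth cone and axonal cytoskeleton, 24 had FPKM of at least 1 in a library. Of these, 4 had an IR12 level 2-fold higher or more, and none was 2-fold lower, beside 6.56% and 6.12% of all 13599 genes. On the TPM scale 6 of the 24 were 2-fold higher, with *Map1b* and *Tubb2b* added, beside 20.7% of all genes. As deposited, beside *Gap43* (1.78) these were *Tubb6*, a beta-tubulin at 3.23 FPKM in CTRL against 13.7 in IR12 (1.80), and *Chl1*, a cell adhesion molecule of the L1 family with 15.5 and 50.4 (1.64), with log2 ratios in parentheses. The fourth and highest ratio was that of *Tmsb10*, which encodes an actin-binding thymosin and was listed at 0 in CTRL and 10.5 in IR12. Its listed locus has 135 bases, and 10.5 was the lowest value above 0 among the 27 genes of that length in IR12. At 134 bases the lowest was 5.39, so 10.5 may stand for only a few reads. *Tmsb10* is counted among the 4, but no difference is read from it. *Map1b*, a microtubule-associated protein and the most abundant of the list in IR12, had 226 FPKM in CTRL against 343 in IR12.

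*Basp1*, a growth cone protein related to GAP-43 in function, had 8.80 FPKM in CTRL against 8.87 in IR12. *Tubb3*, the neuronal beta-tubulin, had 18.6 and 17.0, so neither shared the ratio of *Gap43*. *Sprr1a*, a small proline-rich protein of injured sensory neurons, had 0.106 and 0.748, under FPKM 1 in both, with a log2 ratio of 0.66 that was 2.04 with a pseudocount of 0.1. *Nrn1* and *Ncam1* were lower in IR12, with log2 ratios of -0.84 and -0.83, and of -0.22 and -0.20 on the TPM scale. The median log2 ratio of the 24 genes was -0.08, and 0.54 on the TPM scale, compared with 0.02 and 0.59 over all 13599 genes. Of the 24, 11 were higher in IR12 as deposited, beside 51.8% of all genes, but 21 on the TPM scale.

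Of 15 transcription factors studied in axon injury, 12 had FPKM of at least 1 in a library, and 5 of these were at least 2-fold higher in IR12, beside 6.56% of all genes. On the TPM scale 8 of the 12 were, with *Crem*, *Ddit3* and *Jun* added, beside 20.7% of all genes. *Atf3*, a stress-induced factor and marker of injured neurons, had 2.62 FPKM in CTRL against 94.5 in IR12. *Stat3*, which acts downstream of cytokine receptors, had 17.7 and 120.2, and *Klf6* had 8.50 and 27.5. *Myc* had 0.0911 and 7.79, and *Cebpd* had 0.832 and 7.55, which for this gene, also taken as intronless, are 12 and 186 reads. None was 2-fold lower, beside 6.12% of all genes, and *Jun* was at 7.24 and 13.5. The median log2 ratio of the 12 was 0.94, and 1.56 on the TPM scale. *Sox11*, on the same list, stood at a log2 ratio of 0.23 beside 4.72 for *Atf3* in the same libraries.

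The list of injury kinases and brakes on regrowth had 14 of 15 genes with FPKM of at least 1, of which 1 was at least 2-fold higher and 1 lower, beside 6.56% and 6.12% of all genes. On the TPM scale 2 were higher, with *Map2k4* added, and none was lower, beside 20.7% and 3.21% of all genes. *Socs3*, an inhibitor of cytokine signalling, had 0.393 FPKM in CTRL against 29.1 in IR12. *Rtn4*, which encodes the growth inhibitor Nogo, had 614 and 252, a log2 ratio of -1.28 that was -0.64 on the TPM scale. *Map3k12*, the axon injury kinase DLK, had 29.1 in CTRL and 25.8 in IR12. The median log2 ratio of the 14 was -0.04, and 0.60 on the TPM scale.

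The peptide members belong to a list of 30 precursors of neuropeptides and granins, of which 20 had FPKM of at least 1 in a library. Among them 2 were 2-fold higher or more in IR12, and *Penk* was the only one 2-fold lower on log2(FPKM + 1), with the same counts on the TPM scale. The shares over all genes were 6.56% and 6.12% as deposited, and 20.7% and 3.21% on the TPM scale. *Calca*, the precursor of calcitonin and CGRP, had 0.168 FPKM in CTRL against 31.0 in IR12. *Scg2*, a granin of dense-core vesicles, had 161 and 334, with a log2 ratio of 1.05 that was 0.95 when small RNAs were left out of the scaling. The next lowest ratio after *Penk* was that of *Crh*, corticotropin-releasing hormone, with 2.61 and 0.956, a log2 ratio of -0.89 that was -1.36 with a pseudocount of 0.1. Among peptides of amacrine cells *Vip* had 16.1 and 10.2, and *Tac1*, the substance P precursor, had 43.4 and 43.1. Their log2 ratios were -0.01 and 0.62 on the TPM scale. The natriuretic peptides *Nppa* (0.379 and 1.11) and *Nppc* (0.159 and 0.0465) were low, as was *Nppb*. The median log2 ratio of the 20 genes was -0.28, and 0.20 on the TPM scale, beside 0.02 and 0.59 over all genes. As deposited 5 were higher in IR12, beside 51.8% of all genes, and 15 were higher on the TPM scale.

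Of 6 listed enzymes that process these precursors, 5 had FPKM of at least 1 in a library. None of the 5 was 2-fold different as deposited, beside 6.56% of all genes higher and 6.12% lower. On the TPM scale none was either, beside 20.7% and 3.21%. *Cpe*, carboxypeptidase E, had the highest FPKM, with 662 in CTRL and 463 in IR12, and the 5 enzymes with FPKM of at least 1 had log2 ratios between -0.52 and 0.35, with 1 higher in IR12 as deposited and all 5 on the TPM scale. Of 13 receptors for the peptides, 6 had FPKM of at least 1 in a library, of which 1 was 2-fold higher and 1 lower as deposited, and 1 higher and none lower on the TPM scale. Over all genes these shares were 6.56% and 6.12%, and 20.7% and 3.21%. *Npy2r*, a neuropeptide Y receptor, had 0.344 FPKM in CTRL against 3.02 in IR12, or 5 and 75 reads. Per read of depth this was 8.78 times as high, with an exact 95% interval of 3.60 to 27.8 for counting error only. *Npy1r* had 3.14 and 3.18, and the most abundant receptor, *Npr2*, had 7.14 and 5.38. *Npr3*, the natriuretic peptide clearance receptor, was lower in IR12 with 4.05 and 1.49, and the opioid receptor *Oprm1* with 3.70 and 1.48. Their log2 ratios were -1.02 and -0.92, and -0.55 and -0.46 on the TPM scale. *Galr1* had 0.0634 and 0.0927, and *Galr3* and *Oprd1* were listed at 0 in both libraries. The other 4 receptors, *Npr1*, *Npy4r*, *Npy5r* and *Oprk1*, had log2 ratios between -0.36 and 0.01.

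*Ecel1* belongs to the M13 peptidases, of which 5 of 7 had FPKM of at least 1 in a library. *Mme*, neprilysin, which degrades enkephalins and other peptides, had 14.3 FPKM in CTRL against 0.795 in IR12, a log2 ratio of -3.09. *Mmel1* had 2.54 and 0.662, a log2 ratio of -1.09 that was -0.69 on the TPM scale. *Ece1*, an endothelin-converting enzyme, was the most abundant, with 25.2 and 27.6. *Ece2* had 5.86 and 4.08, *Phex* had 1.74 and 1.03, and *Kel* was listed at 0 in both. As deposited the family held 2 genes at least 2-fold lower and none 2-fold higher, and on the TPM scale *Mme* (-2.57) was the only one lower, beside 6.12% and 3.21% of all genes.

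**Figure D3:**
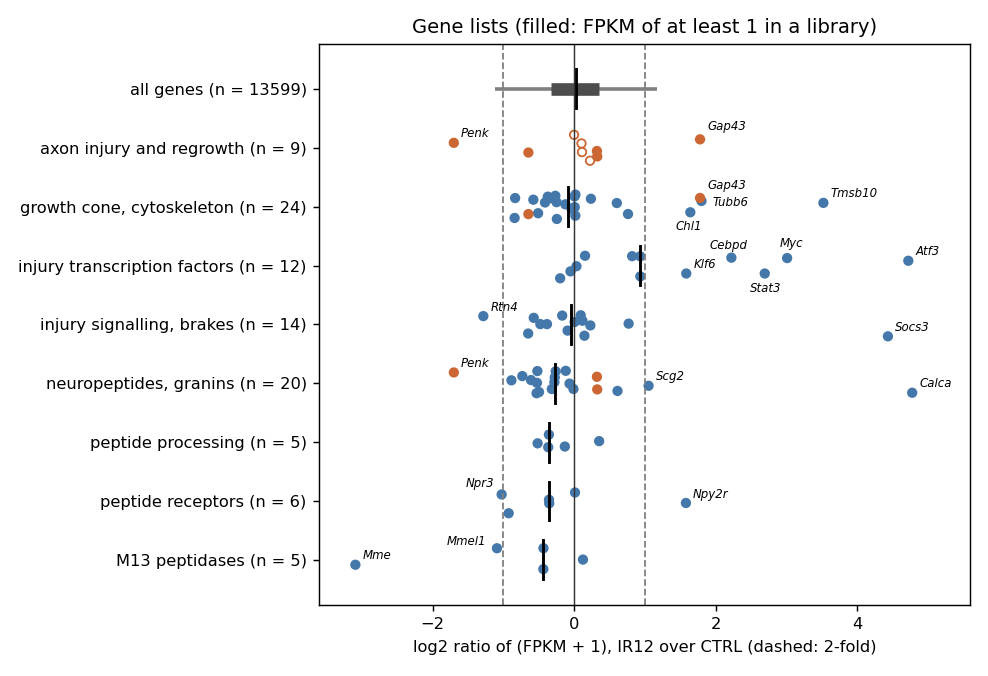
The log2 ratio of (FPKM + 1), IR12 over CTRL, for the genes of each list, with the 9 genes in orange, open where they are under FPKM 1 in both libraries. Black bars are medians of the other lists, the top row shows the 5th, 25th, 50th, 75th and 95th percentiles of 13599 genes, and dashed lines mark 2-fold. *Gap43* stands with *Tubb6* and *Chl1* to the right of the line, and *Penk* lies to the left of every other precursor.

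Markers of the cells that can express these genes were read in the same libraries. The TPM scale multiplies every ratio of sums, IR12 over CTRL, by 1.57, so a sum lower in IR12 by less than this is higher there on that scale. Rod markers were abundant in both, as the retina label has it: the 10 summed to 29810.0 and 29912, led by *Gngt1*. In bulk RNA, fewer cells of a type and less RNA per cell cannot be told apart. All 12 ganglion cell markers had a row and 10 had FPKM of at least 1. Their summed FPKM was 427 in CTRL and 335 in IR12, the most abundant was *Nefl* with 132 and 88.8, and none was at 0. As deposited *Gap43* was higher in IR12. None of these markers was 2-fold higher on log2(FPKM + 1) and 1 was 2-fold lower, beside 6.56% and 6.12% of all genes. The lower one was *Pou4f2*, with 3.41 and 1.06, and the highest ratio was that of *Rbpms*, with 5.69 and 7.46. On the TPM scale the sum was 1.23 times as high in IR12, and 7 of the 10 were higher in place of 2. None was 2-fold higher or lower there on log2(value + 1), beside 20.7% and 3.21% of all genes. *Pou4f2* (-0.65), *Pou4f3* (-0.40) and *Pou4f1* (-0.18) were lower in IR12 on that scale too. *Pou4f3* had 1.85 FPKM in CTRL and 0.679 in IR12, and *Pou4f1* had 0.245 and 0.0359. As deposited with a pseudocount of 0.1, *Pou4f2*, *Pou4f3* and *Pou4f1* were at -1.60, -1.32 and -1.34.

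Of the amacrine cell markers 11 of 12 had a row, all with FPKM of at least 1. Their sum was 689.5 in CTRL and 414 in IR12, led by *Calb2* with 275 and 148, and none was at 0. As deposited all 11 were lower in IR12, none by 2-fold on log2(FPKM + 1), beside 6.12% of all genes. On the TPM scale 5 of the 11 were higher. The median log2 ratio of the 11 was -0.75 as deposited and -0.16 on the TPM scale. On log2(FPKM + 1) *Penk*, at -1.70, was lower than each of them. With a pseudocount of 0.1 *Penk* was at -1.76 and the lowest of them, *Tfap2a* with 1.65 and 0.478, at -1.60. In plain FPKM, with no pseudocount, the ratio of *Tfap2a* was slightly lower than that of *Penk*. The sums were 652 and 501 for 8 bipolar cell markers, led by *Trpm1*, and 201 and 121 for 6 horizontal cell markers, led by *Sept4*, with none at 0. The bipolar sum was 1.20 times as high in IR12 on the TPM scale, and the horizontal sum was 1.06 times as high in CTRL. The part of cell numbers in the values of *Penk* and *Stmn2* was not tested.

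Other tissues and cells also differed between the libraries. The 11 lens markers summed to 3689.5 in CTRL and 440.3 in IR12, led by *Cryba1* with 1614 and 196, so CTRL held 8.38 times as much as deposited and 5.35 times on the TPM scale. The 9 Müller glia markers summed to 1632 and 575, led in CTRL by *Glul* with 754 and 126. As deposited 8 of them were at least 2-fold lower in IR12, and 5 on the TPM scale, beside 6.12% and 3.21% of all genes. The ninth, *Vim*, was the most abundant in IR12, with 121 and 221, and was over 2-fold higher on the TPM scale (1.51). The 10 leukocyte markers summed to 21.8 and 138, led by *Lyz2* with 9.73 and 76.9, with *S100a8* listed at 0 in CTRL. The 8 vascular markers summed to 67.2 and 63.7, led in CTRL by *Rgs5* with 38.6 and 17.6 and in IR12 by *Flt1* with 12.3 and 32.3. The 5 astrocyte markers summed to 36.1 and 29.7, led in CTRL by *S100b* with 25.8 and 5.81 and in IR12 by *Gfap* with 2.95 and 21.9. *Pdgfra*, of the same list, had 7.28 and 1.88, and *Pax2* was at 0 in CTRL. The vascular sum was 1.49 times and the astrocyte sum 1.29 times as high in IR12 on the TPM scale. The 9 markers of pigment epithelium and iris summed to 86.1 and 105, led by *Ttr* with 61.8 and 87.4, while *Rpe65* had 11.1 and 4.88. The part of these cells in the values of *Gap43*, *Penk* or *Mme* was not tested.

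**Figure D4:**
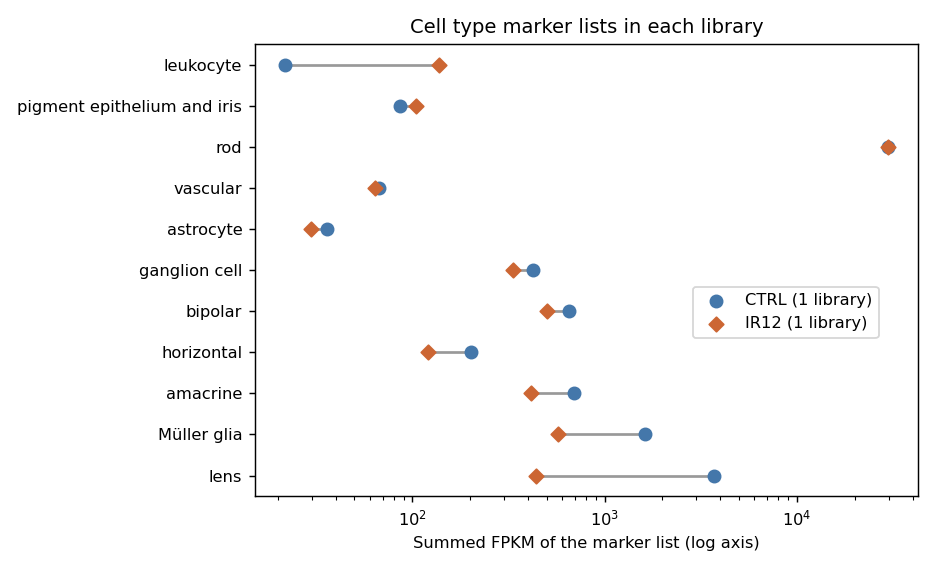
Summed FPKM of each cell type marker list on a log axis, for CTRL (circles) and IR12 (diamonds), 1 library each. As deposited, lens and Müller glia markers are lower and leukocyte markers higher in IR12, and the summed rod markers nearly overlap, while on the TPM scale the rod sum is 1.57 times as high in IR12 and the ganglion cell, bipolar, vascular and astrocyte sums change direction.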

How the data were processed

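2 retinal libraries, CTRL and IR12, were compared, 1 for each condition, so no test was made. The authors deposited FPKM for 32662 genes on rn6. The submitters' processing notes name STAR 2.5.2b and Cuffdiff 2.2.0 without roles, and the step that scaled FPKM and its use of strand are not given in the sources used here. Both columns were matched to samples by title, no column of the authors' own comparisons was used, and listed starts were raised by 1. Changes are log2 ratios of (FPKM + 1), IR12 over CTRL, a scale that understates low genes. Genes with FPKM of at least 1 in 1 library or both were counted at 2-fold. Reads were computed from the lowest FPKM repeated at locus lengths of 900 to 1200 bases, which was decided with the values in view, and their intervals are exact binomial (Clopper-Pearson). All 9 members were named, and from each list other than the cell markers the genes at least 2-fold different, the most abundant and relatives of a member (stathmins, SoxC factors, M13 peptidases, natriuretic peptides and receptors of the encoded peptides). For marker lists the sums, the most abundant gene and markers at 0 were given. *Basp1*, *Tubb2b*, *Tubb3*, *Nrn1*, *Ncam1*, *Sprr1a*, *Crem*, *Ddit3*, *Jun*, *Map2k4*, *Map3k12*, *Crh*, *Vip*, *Tac1*, *Rbpms*, *Pou4f1*, *Pou4f2*, *Pou4f3*, *Tfap2a*, *Vim*, *Flt1*, *Gfap*, *Pdgfra*, *Rpe65* and *Klf7* fall outside that rule and were chosen after their values were seen. The members and lists were chosen with earlier results of these data known. *Sox4*, *Pcsk1n*, *Galr2*, *Slc18a3* and *Pecam1* were not analysed here. The counts and the depth step were tested on simulated data. The settings varied were the pseudocount (0.1), a median-gene centring, equal sums with and without small RNAs, and a minimum FPKM of 5 or none. Values were computed in Python 3.11.15 with pandas 2.3.3 and numpy 2.4.6, intervals with scipy 1.17.1, and plots with matplotlib 3.10.9.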

Additional observations from a re-analysis of the deposited data

How the results depend on the processing

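With 1 library for each condition no library could be left out, and no error between animals can be given. No paired analysis was possible because each condition has 1 library. A count was taken as moved when it changed by more than 1.5 times, and a log2 ratio when the fold it stands for did. Of 66 alternative values for 14 results, 58 did not move, and no member past 2-fold changed sign. Many of the 58 could not have moved, so this count is no measure of robustness. Values without a minimum FPKM equal the main ones by construction, and *Npy* is at 0 in both libraries. Centring, and leaving small RNAs out of the scaling, shift the ratio of a gene by far less than 1.5 times. In all 6 alternatives 1 of the 9 genes was at least 2-fold higher and 1 at least 2-fold lower. A minimum FPKM of 5 or none, and the median-gene centring, could not have changed these 2 counts. On the TPM scale the counts over all genes were 2817 higher and 436 lower, in place of 892 and 832, a scale on which the small RNA share of each library (68.0% in CTRL, 46.2% in IR12) sets the level of all other genes. The median log2 ratio of the 9 genes was 0.11, the value of *Nppb*, from which no difference is read. It was 0.57 with a pseudocount of 0.1 and 0.32 over the 5 genes that reach FPKM 1, and it changed sign to -0.65 over the 3 that reach FPKM 5. Of the ratios of single genes, *Gap43* (2.40), *Penk* (-1.07) and *Stmn2* (-0.01) moved on the TPM scale. *Ecel1* (0.76) and *Nppb* (0.86) moved with a pseudocount of 0.1, which weighs values of a few reads more.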

Other observations

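*Klf7* has 2 entries at the same locus, the first at 3.68 FPKM in CTRL against 3.09 in IR12 and the second at 0.228 against 0, and the first was used. *Cebpd* and *Npy2r*, both taken as intronless, gave whole reads in both libraries, 12 and 186 for the first and 5 and 75 for the second. Per read of depth *Cebpd* was 9.08 times as high in IR12, with an exact 95% interval of 5.07 to 17.9 that covers counting error only.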
